A study of Rattus norvegicus with 18 samples.

Results

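Spp1, Gpnmb, Fabp4, Cd68, Adgre1, Cd14, Lyz2 and Lgals3 are 8 genes of activated and lipid-handling macrophages, out of 17337 genes in the files. They were taken by symbol from cultures of oligodendrocyte progenitor cells (OPCs), the glial progenitors that form myelinating oligodendrocytes, and were selected on their measured levels, which were higher in cultured aged cells than in aged cells that had not been cultured. All 8 were in the files with 1 transcript each and no overlapping gene, and all 8 passed the filter on low values. That contrast chose the genes, so their differences between aged culture and aged primary cells are described without a test, as are the levels of aged against neonate cells.

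Rat OPCs enriched with magnetic beads were profiled by total RNA sequencing in 6 groups of 3 libraries. Cells of aged and of neonate animals were sequenced as primary sorted cells, or after culture on hydrogels coated with laminin, called soft or stiff, giving the groups aged primary, neonate primary, aged soft, aged stiff, neonate soft and neonate stiff. The labels give no strain, genotype, sex, age in days, stiffness value or time in culture, and the age of the primary libraries is given only by the letter A or N in the title. The growth text names the growth factors FGF and PDGF for every library, but whether the 3 libraries of a group stem from different animals is not stated. A p-value here therefore reflects variation among libraries, part of which may be technical.

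Macrophages and microglia, the resident phagocytes of the brain, change their transcripts when they take up debris and lipid. Osteopontin (Spp1) and GPNMB are secreted or surface glycoproteins that such cells make in quantity, FABP4 carries fatty acids inside macrophages and fat cells, and CD68 is a lysosomal membrane protein. Adgre1 encodes the surface receptor F4/80, Cd14 a co-receptor that hands bacterial lipopolysaccharide to toll-like receptors, Lyz2 the enzyme lysozyme, and Lgals3 the sugar-binding protein galectin-3, which gathers at damaged lysosomes. In the brain, resting microglia are known by another set of genes, among them P2ry12, Tmem119 and Cx3cr1.

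On rn6, the build of the files, the genes lie on 8 different chromosomes. Spp1 is at chromosome 14, 6673686 to 6679921, Gpnmb at chromosome 4, 78694447 to 78715685, Fabp4 at chromosome 2, 93792666 to 93797267, and Cd68 at chromosome 10, 56268726 to 56270605. Adgre1 is at chromosome 9, 9431888 to 9585852, Cd14 at chromosome 18, 29560364 to 29561959, Lyz2 at chromosome 7, 60335968 to 60341264, and Lgals3 at chromosome 15, 24153602 to 24165537. These values cover the whole gene, exons and introns.

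Promoter sequence was found in RefSeq (GRCr8) for 6 of the 8 genes. The 250 bases before the start of 4 of them are shown. Gpnmb, Cd68 and Spp1 had higher means in aged cultured than in aged primary libraries, which was also true of Cd14, not printed. Adgre1 had the largest difference toward soft gels in aged cells, which was not called. Each printed sequence runs 5′ to 3′ on the strand of the gene. Capitals mark 3 motifs searched on both strands: TGANTCA, the AP-1 motif, TCACNTG with its reverse CANGTGA, and GAGGAA with its reverse TTCCTC, the core of sites for the myeloid factor Spi1. TCACNTG is a loose E-box pattern that takes in sites read by the Mitf family of factors, and a match need not be such a site. Among all 27457 promoters of the same length, these letters were present in 6.36%, 12.97% and 23.2%. The Gpnmb sequence is chr4:79340878-79341127 (plus strand), that of Cd68 is chr10:54882442-54882691 (minus strand), that of Spp1 is chr14:5619805-5620054 (minus strand), and that of Adgre1 is chr9:2329190-2329439 (plus strand).
Gpnmb: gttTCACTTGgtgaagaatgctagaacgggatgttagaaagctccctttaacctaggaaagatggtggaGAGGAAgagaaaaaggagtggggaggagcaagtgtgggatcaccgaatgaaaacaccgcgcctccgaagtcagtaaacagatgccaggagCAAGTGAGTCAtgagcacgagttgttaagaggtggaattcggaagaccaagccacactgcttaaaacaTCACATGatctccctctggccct
Cd68: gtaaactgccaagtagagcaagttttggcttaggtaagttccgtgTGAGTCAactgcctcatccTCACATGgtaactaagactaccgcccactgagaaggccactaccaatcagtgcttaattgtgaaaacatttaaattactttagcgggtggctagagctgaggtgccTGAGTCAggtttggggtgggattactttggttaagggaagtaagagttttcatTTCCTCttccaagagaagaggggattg
Spp1: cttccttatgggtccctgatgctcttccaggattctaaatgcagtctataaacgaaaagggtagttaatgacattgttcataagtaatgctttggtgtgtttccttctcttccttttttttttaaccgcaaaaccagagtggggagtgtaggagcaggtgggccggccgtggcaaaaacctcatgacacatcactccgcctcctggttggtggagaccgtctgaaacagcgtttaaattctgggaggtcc
Adgre1: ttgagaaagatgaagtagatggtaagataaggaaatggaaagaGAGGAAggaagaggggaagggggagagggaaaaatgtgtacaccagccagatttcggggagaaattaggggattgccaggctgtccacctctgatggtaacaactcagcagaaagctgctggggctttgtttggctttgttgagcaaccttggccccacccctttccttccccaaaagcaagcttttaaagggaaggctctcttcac

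The Gpnmb promoter held 3 matches to the E-box, 1 to AP-1 and 1 to the Spi1 core. Its E-box starting 91 bases before the start overlaps the AP-1 match that begins 87 bases before it. The Cd68 promoter held 2 AP-1 matches, 205 and 80 bases before the start, with 1 E-box and 1 Spi1 core. In the Adgre1 promoter only the Spi1 core was found, 1 time, and in the Spp1 promoter none of the 3 motifs was present within these 250 bases. Of the 2 promoters not printed, Cd14 held 2 Spi1 cores and Lyz2 held 1, and neither held the other motifs. A match is a run of letters and was not tested for binding.

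Depth was low throughout. Levels are in TPM, each gene's length-corrected share of all transcripts, rescaled for each library (scaled TPM). Pairs of reads outside ribosomal RNA were estimated at 22669 to 108509 per library, and a single pair on a 2 kb transcript equalled 2.23 to 10.5 scaled TPM. A listed 0 can therefore hide low expression. Replicate 1 of each aged group stood apart: reads there were spread over more genes, and 54.7% to 77.2% of 1196 olfactory receptor genes, which belong to the nose, were covered, against 0.251% to 39.1% in the other 15 libraries. These 3 are called the broad libraries. Aged soft replicates 2 and 3 followed, at 39.1% and 30.8%, against 16.1% and 1.34% in aged stiff replicates 2 and 3. Reads were thus spread more widely in aged soft than in aged stiff libraries. In aged primary libraries the defining OPC markers were low, with a summed level of 67.3 to 172 over 7 genes against 728 to 855 in neonate primary libraries, so the labelled cell type was only weakly marked there.

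Spp1, Gpnmb and Fabp4 had the largest differences of the 8 genes. In aged cultured cells Spp1 and Gpnmb were among the most abundant transcripts of every library. Spp1 stood at 0, 19.3 and 0 scaled TPM in aged primary libraries, at 521, 579 and 937 in aged soft and at 1123, 2648 and 1223 in aged stiff libraries. The 6 cultured libraries all lay far above the primary ones, where at most 2.92 read pairs fell on the gene. By level, Spp1 ranked between 8th and 39th of 17337 genes in the 6 cultured libraries, ribosomal RNA included, and Gpnmb between 9th and 16th. Fabp4 ranged more widely, from 18th to 212th, much like Adgre1, from 14th to 220th.

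Gpnmb was at 11.9, 109.7 and 40.3 scaled TPM in aged primary libraries, at 958, 1781 and 2183 in aged soft and at 1264, 1530.3 and 1361 in aged stiff libraries. The mean was 1641 ± 624 (SD, n = 3) on soft and 1385 ± 135 on stiff gels, against 54.0 ± 50.3 in primary libraries. The ratio of means to aged primary was 30.4 on soft and 25.7 on stiff gels, and the groups did not overlap. On the log2(scaled TPM + 1) scale the difference of both gels from aged primary was 5.23 ± 0.57 (SE), against a median of 0.05 over all genes tested. Adding 1 shrinks the fold of low genes on this scale. A gene listed at 0 can still move by a large step with 1 read pair, which equalled 2.23 to 10.5 scaled TPM on a 2 kb transcript.

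Fabp4 was listed at 0 in all 6 primary libraries, aged and neonate. In aged soft libraries it was at 135, 386 and 1195 scaled TPM, while in aged stiff libraries at 137, 514 and 944. On both gels the broad library was the lowest and replicate 3 the highest, so the spread within a gel was wide, and the lowest values rested on 5.68 (soft) and 5.08 (stiff) read pairs. No fold is given against a group at 0. Of other fat cell markers, the sum of Adipoq, Plin1, Cidec and Lep was 0.113 to 29.8 scaled TPM in aged primary, 0.626 to 46.1 in aged soft and 0 to 22.8 in aged stiff libraries, with Adipoq at 0 in the 3 aged primary and the 3 aged stiff libraries.

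**Figure D1:**
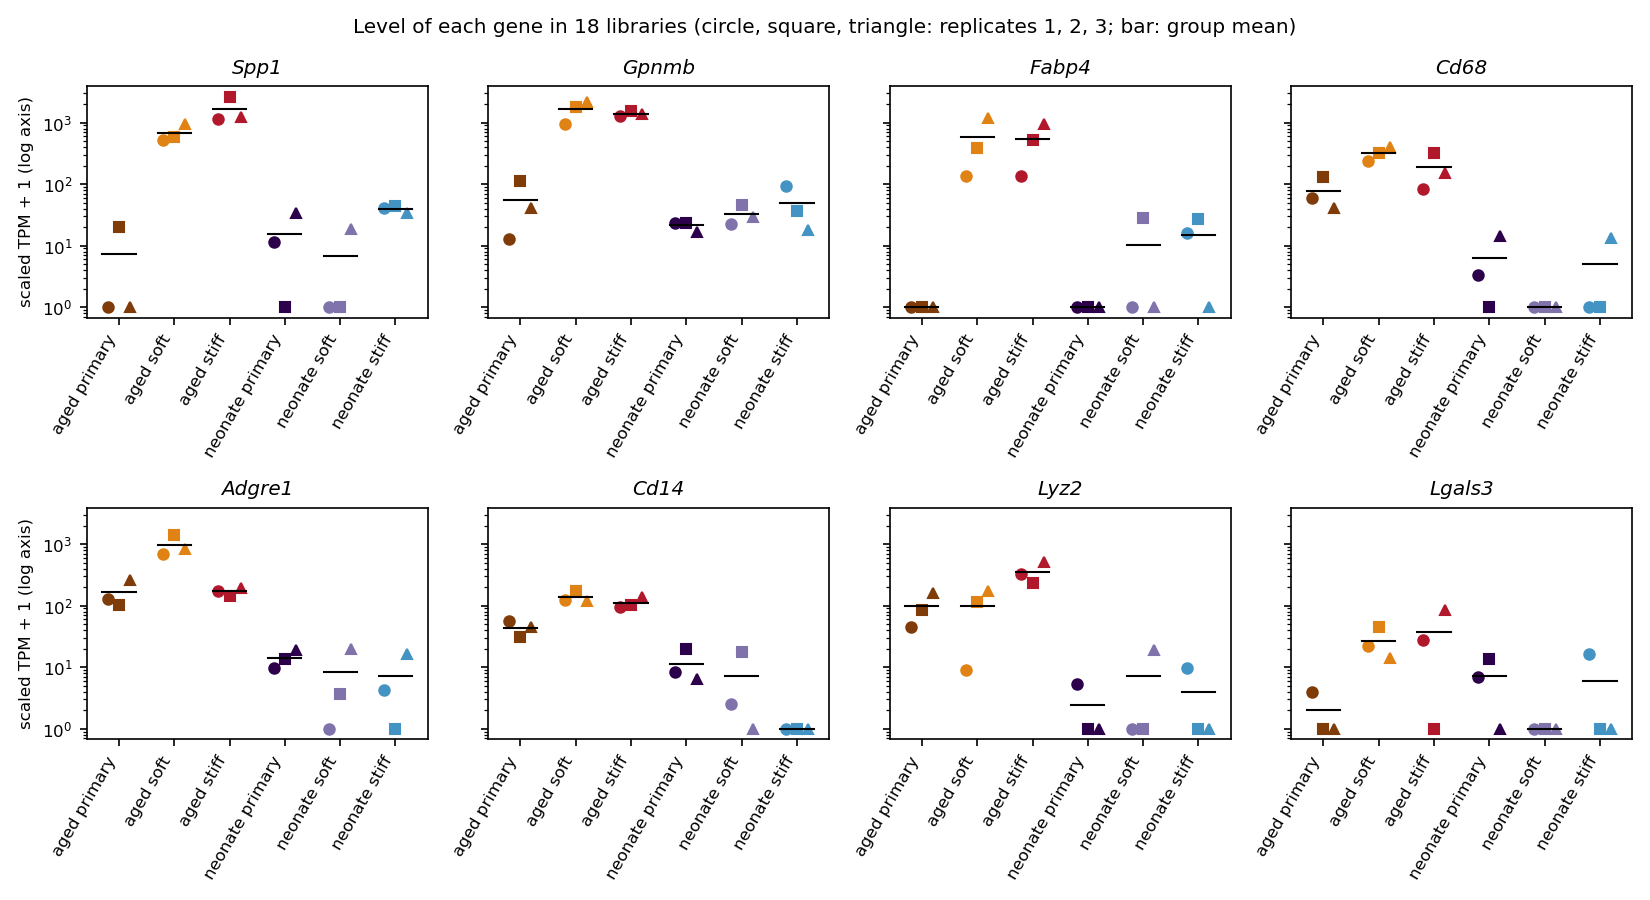
Level of each of the 8 genes in every library, as scaled TPM + 1 on a log axis, by group. Circles, squares and triangles are replicates 1, 2 and 3 and bars are group means. Spp1, Gpnmb and Fabp4 sit at 135 to 2648 scaled TPM in the 6 aged cultured libraries against 0 to 109.7 in the aged primary ones.

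The other 5 genes had smaller differences from aged primary cells, and 4 of them were already present there. Cd68 was at 57.7, 129 and 40.3 scaled TPM in aged primary libraries, at 234, 325 and 407 in aged soft, and at 81.7, 324 and 151 in aged stiff libraries. All soft libraries exceeded the primary ones, while the stiff range overlapped with them. The mean was 75.5 ± 46.8 (SD, n = 3) in primary libraries, 186 ± 125 on stiff and 322 ± 86.6 on soft gels.

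Cd14 was at 55.6, 29.9 and 43.5 in aged primary libraries, at 124, 171 and 116 on soft and at 94.5, 100.3 and 135 on stiff gels. The cultured libraries all lay above the primary ones, by 3.19 times in the mean on soft and 2.56 times on stiff gels. Lgals3 was at 2.98, 0 and 0 in aged primary libraries, at 21.2, 43.3 and 13.4 on soft and at 26.4, 0 and 84.4 on stiff gels. Galectin-3 transcripts were thus listed in 5 of 6 aged cultured libraries, but no library held more than 6.66 read pairs on the gene.

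Adgre1 and Lyz2 differed from primary cells mainly on 1 gel each. Adgre1 was at 128, 100.2 and 262 scaled TPM in aged primary libraries, at 686, 1404 and 829 on soft gels and at 172, 144 and 194 on stiff gels. The soft libraries lay above both other groups, which overlapped each other, and the ratio of means to primary was 5.95 on soft and 1.04 on stiff gels. Lyz2 was at 44.7, 84.2 and 161 in aged primary libraries, at 7.97, 112 and 169.9 on soft and at 330.0, 228 and 505 on stiff gels. Here the stiff libraries lay above both other groups, with a ratio of means to primary of 3.67, against 0.998 on soft gels, where the broad library was the lowest.

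In all, 4 of the 8 genes (Spp1, Gpnmb, Fabp4 and Cd14) were higher in each of the 6 aged cultured libraries than in any aged primary one, and 0.812% of all genes tested were so. Nothing is read from that share, since the choice of genes used this contrast. Just inside the choice was Lyz2, with the smallest difference of the 8 at 0.68 ± 1.01 (SE, log2 scale), and the choice had no numeric threshold. Without the 3 broad libraries the 8 differences ran from 0.89 (Lyz2) to 9.43 (Fabp4), all of them positive. Together the 8 genes took 0.0794% to 0.140% of the TPM outside ribosomal RNA in aged primary libraries, 0.775% to 1.97% in aged soft and 0.841% to 2.03% in aged stiff libraries.

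Neonate cells carried little of these transcripts in any condition. Over the 9 neonate libraries, 33 of the 72 values of the 8 genes were 0, the highest value was 91.7 scaled TPM (Gpnmb in neonate stiff replicate 1), and no gene had more than 19.8 read pairs in a library. For 6 of the 8 genes every aged cultured library exceeded every neonate library, the exceptions being Lyz2 and Lgals3. The share of all genes that did so was not counted. Since the aged cultured libraries entered the choice of genes, nothing is read from the 6. The share of TPM outside ribosomal RNA taken by the 8 genes was 0.0263% to 0.0324% in neonate primary, 0.00893% to 0.0316% in neonate soft and 0.0274% to 0.0573% in neonate stiff libraries.

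Neonate culture is a comparison that the choice of genes did not use, and it asks whether the genes also rise when neonate cells are cultured. Limma, a linear model fitted across all genes with Benjamini-Hochberg adjustment, called 0 of the 8 genes between both neonate gels and neonate primary cells, against 0.099% of all genes tested. None of the 8 had all 6 cultured libraries above the primary ones, against 1.22% of all genes, or all below them, against 2.4%. At an unadjusted p under 0.05 there were 3 of the 8, and 712 of the 15144 genes tested. The 3 were Cd14 and Adgre1, lower in culture, and Fabp4, higher. Limma on estimated read pairs (voom) also called 0.

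Gpnmb was at 22.6, 22.7 and 15.8 scaled TPM in neonate primary libraries, at 21.9, 45.1 and 28.5 on soft and at 91.7, 35.8 and 16.7 on stiff gels. The 3 groups overlapped, and the difference of culture from primary was 0.73 ± 0.57 (SE, log2 scale; limma, adjusted p = 1.0). Spp1 was at 10.3, 0 and 33.4 in neonate primary libraries, at 0, 0 and 17.6 on soft and at 39.6, 43.9 and 32.9 on stiff gels, a difference of 0.49 ± 0.99 (limma, adjusted p = 1.0). Osteopontin transcripts were thus not called higher in neonate culture. All 3 stiff libraries lay above the soft ones, but on at most 5.50 read pairs each.

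Fabp4, at 0 in neonate primary libraries, was listed in 1 of 3 neonate soft libraries, at 27.3 scaled TPM, and in 2 of 3 neonate stiff libraries, at 15.1 and 26.4. The difference was 2.27 ± 1.05 (SE, log2 scale; limma, adjusted p = 1.0). Cd14 went the other way. It was at 7.40, 18.5 and 5.39 in neonate primary libraries, at 1.55, 16.9 and 0 on soft gels and at 0 in the 3 stiff libraries (difference of -2.43 ± 0.74; limma, adjusted p = 0.404). Adgre1 was at 8.69, 12.7 and 18.04 in neonate primary libraries, at 0, 2.67 and 19.0 on soft and at 3.22, 0 and 15.6 on stiff gels (difference of -1.71 ± 0.77; limma, adjusted p = 0.986). The ranges of primary and cultured cells overlapped for all 3 genes.

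The last 3 genes were close to the detection limit in neonate cells. Cd68 was at 2.33, 0 and 13.5 scaled TPM in neonate primary libraries and above 0 in only 1 of 6 cultured ones, at 12.1. Lyz2 was above 0 in 1 primary library, at 4.30, and in 2 cultured libraries, at 18.3 and 8.80. Lgals3 was at 5.94, 12.4 and 0 in neonate primary libraries and above 0 in 1 cultured library, at 15.1. Limma gave an adjusted p of 1.0 for each of the 3.

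Before culture, aged cells had more of 4 of the 8 genes than neonate cells. Every aged primary library exceeded every neonate primary one for Cd68, Adgre1, Cd14 and Lyz2, whose values stand above, and 11.1% of all genes tested did the same. The ratio of means was 12.4 for Adgre1 and 4.12 for Cd14. On the log2 scale the differences were 5.62 for Lyz2, 4.22 for Cd68, 3.47 for Adgre1 and 2.07 for Cd14, against a median of 0.69 over all genes tested. The remaining genes overlapped, with 0.88 for Gpnmb and negative differences for Spp1 and Lgals3, and Fabp4 was at 0 in both groups. Since aged primary libraries entered the choice of genes, no test is given.

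On the gels, aged cells exceeded neonate cells in every library for 7 of the 8 genes on soft gels (all but Lyz2) and for 7 on stiff gels (all but Lgals3). Of all genes tested, 16% did so on soft and 5.61% on stiff gels. The aged cultured libraries entered the choice of genes, so these counts are a description. OPC markers stood lower on the aged side, with a sum over 7 genes of 277 to 407 scaled TPM in aged soft and 61.2 to 429 in aged stiff libraries, against 1256 to 1506 in neonate soft and 797 to 1570 in neonate stiff ones. Their part in these differences was not tested. In such bulk samples, fewer cells of a type and less RNA per cell cannot be told apart.

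Soft and stiff gels were compared within each age to ask whether the stiffness of the support moves these genes. The aged cultured libraries entered the choice of genes as cultured against uncultured cells, not as soft against stiff, but the test between aged gels uses the same libraries and is not fully independent of that choice. The wider spread of reads in aged soft libraries, given above, also cannot be told apart from the gel. In aged cells limma called 0 of the 8 genes, against 0.0792% of all genes tested. The largest difference toward soft was that of Adgre1, whose soft and stiff libraries did not overlap: 2.45 ± 0.89 (SE, log2 scale; limma, adjusted p = 0.303, unadjusted p = 0.0104), or 1.86 above the median of all genes, which itself was 0.59 higher on soft gels. Adgre1 was the 1 gene of the 8 with all soft libraries above all stiff ones, as were 6.63% of all genes tested. Limma on estimated read pairs (voom) called 1 of the 8, Adgre1, so its call depends on the tool. The share of all genes that voom calls between these gels was not counted, so nothing is read from that 1 call.

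Lyz2 and Spp1 went toward the stiff gel, with all stiff libraries above all soft ones, a pattern found in 1.69% of all genes tested. Lysozyme transcripts differed by -2.60 ± 1.17 (SE, log2 scale; limma, adjusted p = 0.41) and osteopontin transcripts by -1.23 ± 1.14 (limma, adjusted p = 0.745). The stiff level of Spp1 was 1664 ± 853 scaled TPM (SD, n = 3) and the soft level 679 ± 226. For the other 5 genes the ranges on the gels overlapped, with differences of 0.98 for Cd68, 0.86 for Lgals3, 0.31 for Cd14, 0.17 for Gpnmb and -0.03 for Fabp4.

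In neonate cells limma called 0 of the 8 genes between gels, and 0% of all genes tested were called. At an unadjusted p under 0.05 there were 2 of the 8 and 438 of all genes, and voom called 0 of the 8. Spp1 stood higher on the stiff gel, with a difference of -3.90 ± 1.14 (SE, log2 scale; limma, adjusted p = 1.0). Its ranges on the gels did not overlap, but the share of all genes with that pattern was not counted. The values rested on 0 to 1.96 read pairs per library on soft and 4.23 to 5.50 on stiff gels, so nothing is read from them. Cd14 leaned toward the soft gel, at 1.84 ± 0.85 (limma, adjusted p = 1.0). The difference of the gel effect between ages, which shares those aged libraries, was also tested, and limma called 0 of the 8 genes (adjusted p of 0.955 to 1.0, none at an unadjusted p under 0.05), against 0.0066% of all genes tested. Voom called 0 as well. The gel differences of aged and neonate cells were therefore not shown to differ for any of the 8.

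**Figure D2:**
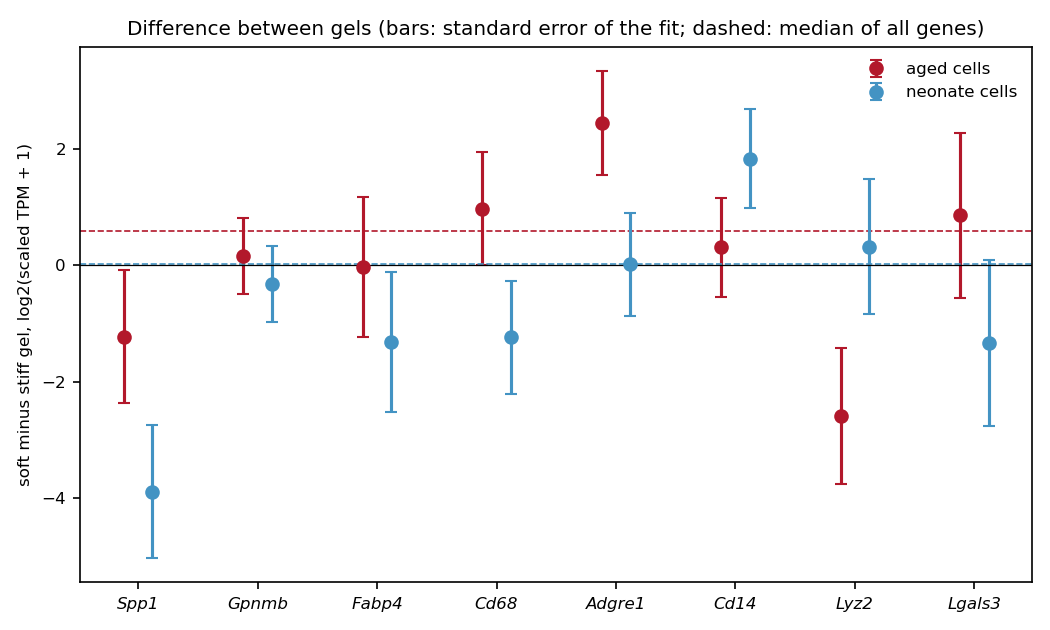
Difference between soft and stiff gels for each of the 8 genes, on the log2(scaled TPM + 1) scale, in aged and in neonate cells, with bars of 1 standard error, positive values higher on soft gels, and dashed lines at the median of all genes. Adgre1 at 2.45 and Lyz2 at -2.60 lie farthest from 0 in aged cells, Spp1 at -3.90 in neonate cells, and limma called none of them.

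Taken as a sum, the genes of resting microglia ran opposite to the 8 genes in aged cells. The summed level of 11 such markers was 1957 to 3098 scaled TPM in aged primary libraries, 103 to 272 in aged soft and 185 to 302 in aged stiff libraries, and 43.1 to 205 in the 9 neonate libraries. Gpnmb came to 0.00609 to 0.0397 of that sum in aged primary libraries, 3.52 to 21.2 of it in aged soft and 5.06 to 7.36 in aged stiff libraries. Adgre1 went from 0.0363 to 0.0847 of the sum in primary libraries to 2.52 to 8.04 on soft and 0.475 to 1.05 on stiff gels. Not every marker followed the sum: Olfml3 had a mean of 4.95 in aged primary, 30.5 on soft and 20.7 on stiff gels. Gpr34 had means of 25.6, 36.8 and 60.5, with aged stiff libraries at 0 to 125. The part of the 11 markers in the levels of the 8 genes was not tested.

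Markers of other blood and border cells were low in the same libraries. The sum of 5 markers of border and perivascular macrophages (Mrc1, Cd163, Lyve1, Ms4a7 and F13a1) was 0 to 53.2 scaled TPM in aged primary, 7.71 to 60.3 in aged soft and 2.22 to 36.4 in aged stiff libraries. Neutrophil markers summed to 0 to 51.2 in the 9 aged libraries, with S100a8 and Elane at 0 in all 9. Lymphocyte markers summed to 0 to 52.2.

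**Figure D3:**
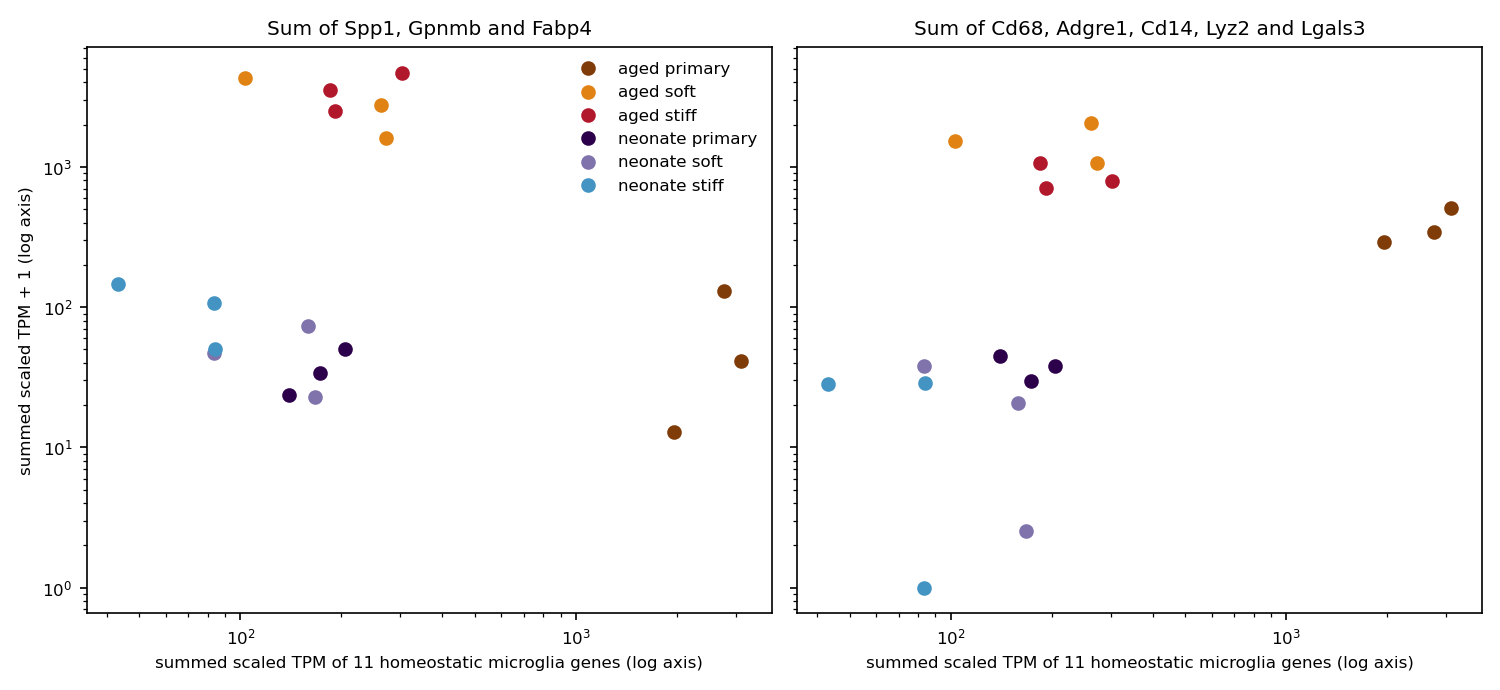
Summed level of Spp1, Gpnmb and Fabp4 (left) and of the other 5 genes (right), as scaled TPM + 1, against the summed level of 11 markers of resting microglia in scaled TPM, both on log axes, with 1 point per library coloured by group. Aged primary libraries lie to the right at microglia sums of 1957 to 3098, and aged cultured libraries at 103 to 302, where the left sum before adding 1 is 1613 to 4692 against 11.9 to 129 in aged primary libraries.

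Lists of related genes, none of them among the 8, show how the rest of the same pathways behaved. Limma's test is given for them, but the lists were drawn up with earlier results of these data known, so their directions are not independent evidence. Of 70 listed genes 61 were tested. In aged against neonate primary cells 17 rose and 0 fell (limma), where 1.94% of all genes tested rose and 0.66% fell. In aged culture against aged primary 1 rose and 10 fell, where 0.337% of all genes rose and 0.773% fell. In neonate culture against neonate primary 0 rose and 1 fell, where 6 of the 15144 genes tested rose and 9 fell. Without the 3 broad libraries, where 56 of the genes were tested, 17 rose and 1 fell, 2 rose and 9 fell, and 0 rose and 2 fell. The shares of all genes in that fit were not counted, so nothing further is read from its counts.

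Lipid handling genes were mixed in aged culture. Of 16 genes, 4 rose in aged primary cells (Ch25h, Trem2, Lipa and Apoe), and 0 rose and 2 fell in aged culture, with a median difference there of 0.53 against 0.05 for all genes. Apoe, the lipid carrier of glia, was at 944, 1821 and 1887 scaled TPM in aged primary libraries, at 221, 247 and 165 on soft and at 81.0, 237 and 181 on stiff gels. Every cultured library lay below every primary one (difference of -3.05 ± 0.50, SE, log2 scale; limma, adjusted p = 0.00136). Ch25h, which makes 25-hydroxycholesterol, also fell, from 225, 741 and 355 to between 0 and 65.6 in the cultured libraries (limma, adjusted p = 0.0408). Other members had positive differences that did not pass the test, named here after their values were seen. Lpl, a lipase, was at 4.32 ± 1.17 (SE; limma, adjusted p = 0.0684). Fabp5, a relative of Fabp4, was at 3.55 ± 0.93 (limma, adjusted p = 0.0565), and the lipid droplet protein Plin2 at 3.07 ± 1.01 (limma, adjusted p = 0.185). For each of these genes the ranges in aged primary and aged soft libraries overlapped. The highest aged primary value was 68.39 scaled TPM for Fabp5, 5.395 for Lpl and 7.337 for Plin2. Aged soft libraries reached 59.53 at most for Fabp5, and went down to 0.5242 for Lpl and 7.266 for Plin2. Aged stiff libraries all lay above the primary ones for Lpl and Plin2, but not for Fabp5.

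Partners of osteopontin and galectin-3 gave the 1 riser of culture. Cd44, a receptor that binds osteopontin and hyaluronan, was at 22.0, 0 and 0 scaled TPM in aged primary libraries, at 42.2, 87.3 and 69.0 on soft and at 38.2, 44.4 and 73.4 on stiff gels. The cultured libraries all lay above the primary ones (difference of 4.33 ± 0.92, SE, log2 scale; limma, adjusted p = 0.0142). The call was lost without aged primary replicate 2 or replicate 3 (limma, adjusted p of up to 0.169). In neonate cells the means of Cd44 were 1.04 in primary, 11.1 in soft and 11.8 in stiff libraries. That difference of culture, 2.58 ± 0.92 (SE; limma, adjusted p = 0.662), was not called. Of the 8 genes tested in this list, Mertk, a receptor for dying cells, rose in aged primary cells, from 0.171, 0 and 0 in neonate to 54.1, 106 and 116 (limma, adjusted p = 0.000787). The median difference of the list in aged culture was -0.27.

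Among 13 tested genes of Cd14 and toll-like receptor signalling, Tnf and Tlr2 rose in aged primary cells and Tnf fell in aged culture. Tnf, an inflammatory cytokine, had a mean of 80.3 scaled TPM in aged primary, 2.75 in neonate primary and 8.05 in aged cultured libraries (limma, adjusted p = 0.0348 for age and 0.0416 for culture). The median of the list in aged culture was -0.92, against 1.52 ± 0.74 (SE) for Cd14 itself, whose value is a description. Of 13 tested genes of macrophage identity and scavenging, Itgam and Csf1r rose in aged primary cells and Csf1r fell in aged culture. Csf1r, the receptor for the growth factor that macrophages and microglia depend on, had a mean of 345 in aged primary and 38.0 in aged cultured libraries (difference of -3.30 ± 0.71; limma, adjusted p = 0.0143). The median of that list in aged culture was -0.24, and its genes went both ways. Cd63, not called, had a mean of 100.3 in aged primary, 429 on soft and 279 on stiff gels. Spi1, also not called, had means of 102.7, 126 and 155, with overlapping ranges.

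Resting microglia genes made up most of the calls. Of 11 tested, 8 rose in aged primary cells and 6 fell in aged culture, with list medians of 4.14 and -3.58 on the log2 scale against 0.69 and 0.05 for all genes. P2ry12, a purine receptor, fell from 621, 1164 and 978 scaled TPM in aged primary libraries to 7.34, 6.10 and 0 in aged soft libraries and to 0, 18.2 and 0 in aged stiff ones (difference of -8.11 ± 0.92, SE; limma, adjusted p = 7.98e-06). Cx3cr1, the fractalkine receptor, fell from 401, 389.8 and 586 to 49.7 and 41.4 in the broad soft and stiff library and 0 in the other 4 cultured ones (limma, adjusted p = 0.00138). Slc2a5 and Siglec5 also fell in aged culture, and in neonate culture P2ry12 was the 1 gene of the 61 called, lower (-5.12 ± 0.92; limma, adjusted p = 0.0127).

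The calls of age and culture share the aged primary libraries, so a gene high there tends to both. They also rest on few libraries: the 17 rises of aged primary cells became 5 to 14 with 1 library left out, 6 without aged primary replicate 2, 5 without aged primary replicate 3, and 7, 8 and 9 without neonate primary replicate 1, 2 and 3. The 11 calls of aged culture became 4 without aged primary replicate 2 or replicate 3, and the 1 of neonate culture became 0 without any 1 of the neonate primary replicates. Calls that held whichever library was left out included Apoe in both comparisons, Mertk and Tmem119 in aged primary cells, and P2ry12 and Cx3cr1 in aged culture.

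**Figure D4:**
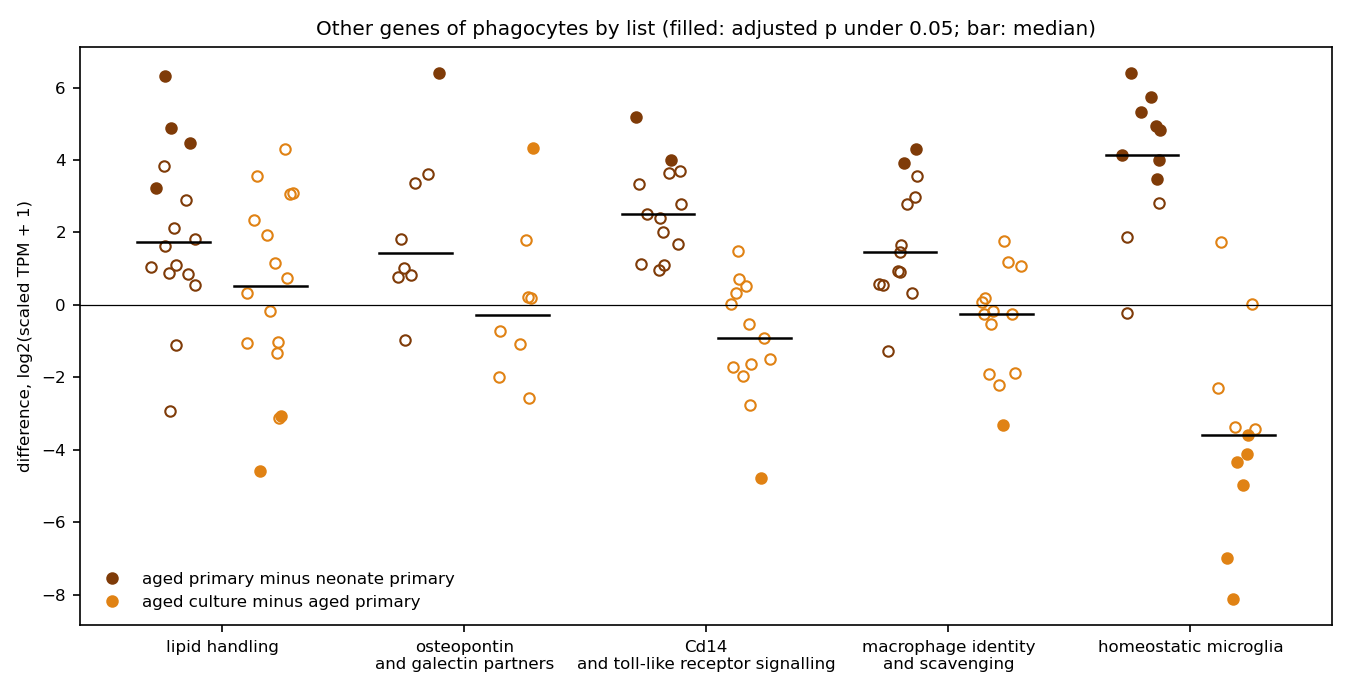
Differences of the tested genes of 5 pathway lists on the log2(scaled TPM + 1) scale, in aged against neonate primary cells and in aged culture against aged primary, with filled points at an adjusted p under 0.05 and bars at list medians. Resting microglia genes lie around a median of 4.14 in the first comparison and -3.58 in the second, and Cd44 at 4.33 is the 1 gene called higher in aged culture.

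The 8 genes followed one another over the 18 libraries to different degrees. Pearson's r between each gene and the mean of the other 7, on standardized log2 values, was highest for Gpnmb at 0.919 and lowest for Lgals3 at 0.590. These 18 libraries fall into groups and share a platform and a low depth, so r is a description. Other genes with a like pattern were ranked by r with the mean of the 8, among 8548 genes with a mean of at least 5 scaled TPM, whose median r was 0.092 and of which 64 passed 0.8. Cybb, the catalytic subunit of the phagocyte oxidase, came first at 0.953, followed by Fxyd2 (0.922), Gpr137b (0.919), the cathepsin Ctsk (0.913) and the leukocyte integrin Itgal (0.906). Tmed1, Myo1g, Dusp12, Gpd1 and Pax8 completed the first 10, at 0.901 to 0.890. Over the 15 libraries without the broad ones r stayed between 0.887 and 0.957 for these 10 genes.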

How the data were processed

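Total RNA of 18 rat libraries (6 groups of 3) was sequenced in read pairs of 150 bases. The authors quantified annotated transcripts with StringTie 1.3.2d and deposited TPM, FPKM and mean coverage per transcript, per the file headers. The submitters' processing notes also name Trimmomatic, HISAT2 and Bowtie, with roles and versions not given in the sources used here.

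TPM of each gene symbol was summed and scaled per library by the median of ratios over the 1644 genes that no library lists at 0. A gene was tested where 3 or more libraries reached a TPM of 1, which left 15144 of 17337. Limma 3.58.1 (R 4.3.3) with trended variance was run on log2(scaled TPM + 1), using 1 mean for each of the 6 groups and a spread common to them, and Benjamini-Hochberg adjustment covered all genes tested (threshold 0.05). In culture comparisons both gels were averaged. The fit was tested on simulated data. Read pairs were estimated from the deposited coverage and transcript length at 300 bases per pair, and carry counting error.

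The 8 genes, the pathway and marker lists and the naming rule were chosen with earlier results of these data known. Of each list, up to 4 called genes per comparison with the largest change and a mean of at least 5 scaled TPM were eligible to be named. One gene that this rule selected is not reported here. Genes of like pattern were the 10 with the highest r. Alternatives changed the pseudocount (0.1), the filter (none, or a TPM of 5), the scaling (none, or quantiles), the test (voom) and the design (a replicate block, the compared groups alone), or left out each library or the 3 broad ones. Positions are on rn6 and promoters on GRCr8 from RefSeq, and the 2 builds were not mixed. Replicate numbers in the titles differ from names in the file headers in 12 of 18 libraries, and they were not taken to pair samples.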

Additional observations from a re-analysis of the deposited data

How the results depend on the processing

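The counts of called genes among the 8 stayed at 0 in all 4 comparisons under every alternative and with any 1 library left out (0 to 0), except that voom called 1 (Adgre1) between gels in aged cells. Among the 61 pathway genes, the count for aged against neonate primary cells was 17, and became 4 with a pseudocount of 0.1, 11 with only the groups compared, and 5 to 14 with 1 library left out. For aged culture against aged primary it was 11, and became 5, 7 and 4 to 13, and 18 with voom. For neonate culture it was 1, and became 0 with a pseudocount of 0.1 or no filter, 2 with no scaling, only the groups compared or without the 3 broad libraries, 3 with voom, and 0 to 1 with 1 library left out. The cause of these shifts was not tested, apart from fewer samples in the fits that leave libraries out.

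Some differences between gels in aged cells that were close to 0 and not called changed sign. Gpnmb went to -0.022 with no scaling, and lay between -0.080 and 0.51 with 1 library left out. Fabp4 went to 0.018 with quantile normalization and 0.39 with voom, and lay between -0.82 and 0.74 with 1 library left out. Lgals3 went to -0.25 with voom and lay between -1.001 and 2.21 with 1 library left out. The cause was not tested.

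Replicate numbers did not pair the libraries as a whole: over 45 same-numbered pairs the correlation of deviations had a median of 0.012 and ran from -0.093 to 0.233, with 4 pairs over 0.1. Over 90 pairs with another number the median was -0.0024 and the range -0.220 to 0.121, with 1 pair over 0.1. Some same-numbered libraries may therefore deviate together. The 3 broad libraries carry the same number. With the replicate block the counts for the 8 genes were 0 in all 4 comparisons, and those of pathway genes were 17, 12 and 1. Depth limits the genes of few read pairs, Lgals3, Fabp4 in the broad libraries, and all 8 in neonate cells, where a smaller change was not detectable.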
